A study of Mus musculus with 6 samples.

Results

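Genes of cell division and DNA replication were followed in heart muscle of C57BL/6 mice aged 6 weeks. There were 3 samples of wild type (WT) myocardium and 3 of NS-DADm myocardium, from mice that carry mutations knocked in throughout the body in the DADs of both NCOR and SMRT. NCOR and SMRT are nuclear receptor corepressors, and the DAD is the deacetylase activating domain through which they switch on the histone deacetylase HDAC3. The genes were a list of 42 chosen by function, and each of the 42 had counts in every one of the 6 samples. They were taken from 17891 named genes listed in at least 1 sample. The list also holds G1 cyclins, CDK inhibitors and Rb1, which govern entry into the cycle and are not mitotic genes. The question was whether the mitotic program differs between NS-DADm and WT myocardium. Total expected counts, the reads assigned to genes, ranged from 10183792 to 11205221 in WT and from 12262523 to 12758311 in NS-DADm, so all NS-DADm libraries were deeper. Since nothing in the labels ties a sample to its own animal, the p-values speak only of the spread between these samples, which may be technical.

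A dividing cell passes from G1 into DNA replication when D-type cyclins with CDK4 or CDK6, and cyclin E with CDK2, inactivate the RB protein and free E2F factors to switch on replication genes. Cyclin A and cyclin B with CDK1 then drive mitosis, and the anaphase-promoting complex, activated by CDC20 once the spindle checkpoint is satisfied, destroys securin and so frees separase to split the sister chromatids. Most heart muscle cells leave this cycle soon after birth, and the dividing cells of a young heart are largely endothelial cells, fibroblasts and leukocytes.

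Late cell cycle genes are read out from promoters that share a short element, the cell cycle gene homology region (CHR), often next to CCAAT boxes bound by NF-Y, whereas replication genes tend to carry E2F sites. RefSeq promoter windows of GRCm38.p6, from 250 bases before to 50 after a start, were found for 34 of the 42 genes. The CHR was searched as TTTGAA or TTCGAA, the E2F site as TTTGGCGC, TTTCGCGC or TTTCCCGC, and the NF-Y box as CCAAT, on both strands. Of the 19 late cell cycle genes with a window, 14 (73.7%) held a CHR, against 21.7% of all 27025 genes with a window, and 13 (68.4%) held both a CHR and a CCAAT, against 8.61%. Of the 8 replication genes 3 held an E2F site (37.5%, against 2.12%), and of the remaining 7 genes with a window (G1 cyclins, kinases and inhibitors and E2f1) 0 held a CHR. These matches describe letters and are not binding measurements. The stretches that follow show this layout in genes whose levels are given further on, each 100 bases long, 5′ to 3′ on the gene's strand and ending before the annotated start. Capitals mark a CHR and a CCAAT on either strand in Cdk1, Cdc20, Espl1 and Kif11, and E2F sites and a CCAAT in Mcm6.
Cdk1 (chr10:69352913-69353012, minus strand): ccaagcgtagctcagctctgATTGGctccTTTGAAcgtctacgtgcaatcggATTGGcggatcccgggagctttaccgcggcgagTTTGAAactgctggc
Cdc20 (chr4:118437344-118437443, minus strand): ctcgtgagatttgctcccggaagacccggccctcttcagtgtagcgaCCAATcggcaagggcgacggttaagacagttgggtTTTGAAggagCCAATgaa
Espl1 (chr15:102296193-102296292, plus strand): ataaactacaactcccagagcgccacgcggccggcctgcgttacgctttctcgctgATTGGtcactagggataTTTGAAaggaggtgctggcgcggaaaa
Kif11 (chr19:37376282-37376381, plus strand): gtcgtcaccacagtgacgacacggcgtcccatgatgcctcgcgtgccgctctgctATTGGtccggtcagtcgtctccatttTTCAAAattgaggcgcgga
Mcm6 (chr1:128359726-128359825, minus strand): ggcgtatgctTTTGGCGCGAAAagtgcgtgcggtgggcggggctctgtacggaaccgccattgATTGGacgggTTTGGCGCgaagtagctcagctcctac
The CHR nearest the start began 15 bases before it in Cdk1, 18 in Cdc20, 27 in Espl1 and, on the opposite strand, 19 in Kif11. Mcm6 had 3 E2F matches, of which those beginning 110 and 106 bases before the start overlap each other.

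Between NS-DADm and WT, 1 of the 42 genes fell, none rose, 39 were tested and did not pass, and 2 were too low to test. The cyclin gene Ccnd2 was the member that fell. The 1 call among 40 tested genes was 2.5%, against 3.2% of all 13130 tested genes called in either direction (1.79% higher and 1.41% lower), so the genes were not called more often than the background. Fold changes were positive in 21 and negative in 19, with a median log2 fold change of 0.04 beside 0 for all tested genes. An unadjusted p under 0.05 was found for 4 of the 40 (10%), Ccnd2, Mcm5, Espl1 and Cenpa, against 18.1% of all tested genes. The FPKM values of the groups did not overlap in 6 of the 40 (15%), against 23.4%. No member was called higher by edgeR's quasi-likelihood test, by DESeq2's test or by limma.

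**Figure D1:**
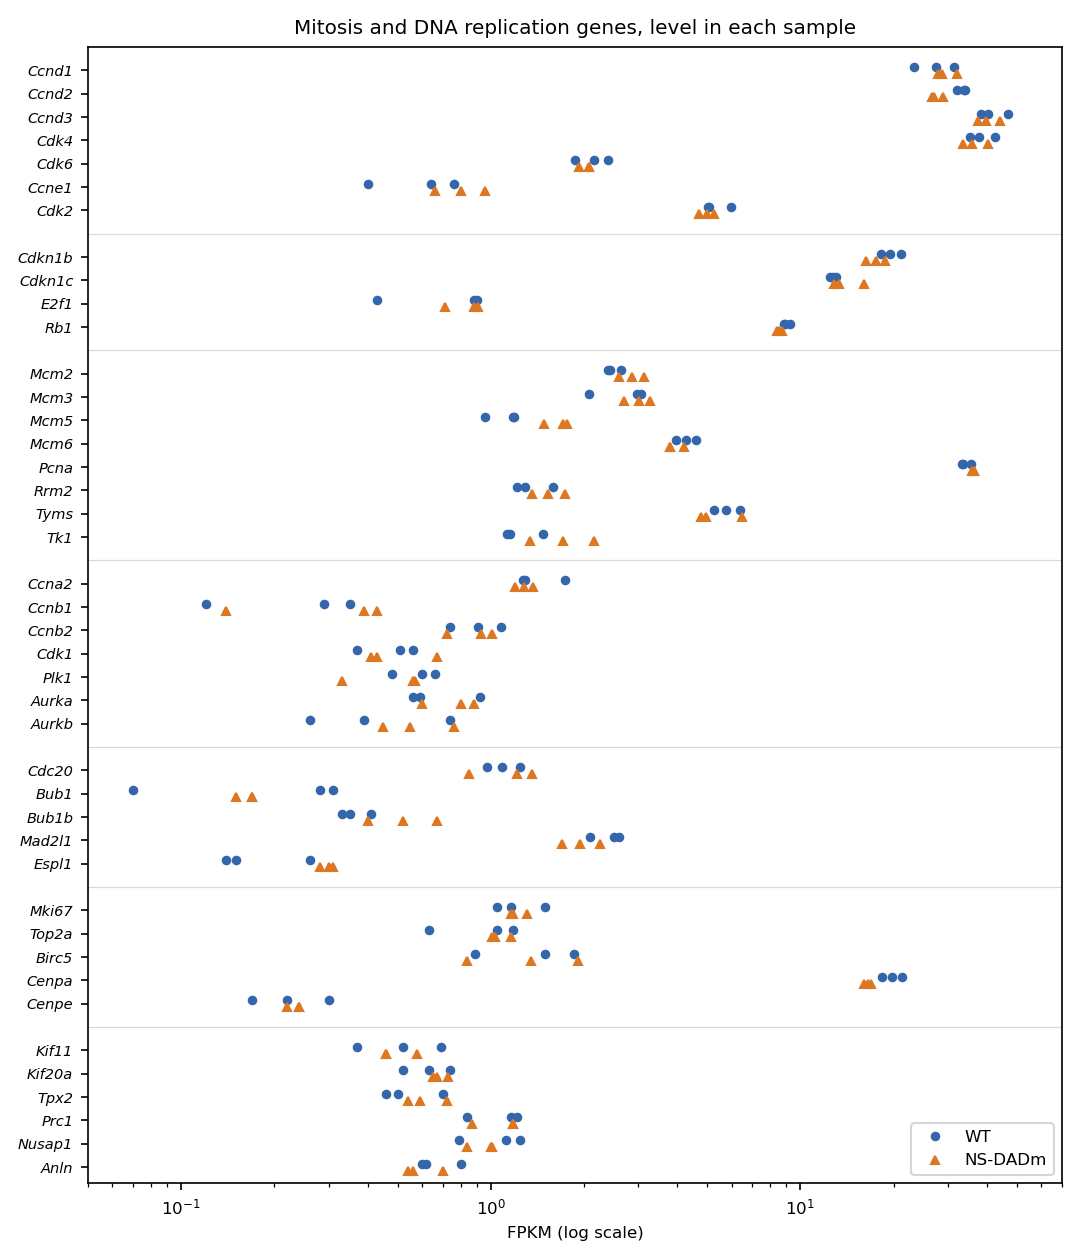
FPKM (log axis) of the 42 genes in each of the 3 WT (circles) and 3 NS-DADm (triangles) samples, in blocks by role from G1 cyclins at the top to spindle motors and cytokinesis at the bottom. G1 genes and Pcna lie mostly above the late cell cycle genes, and the symbols of the groups overlap in most rows.

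Ccnd3 and Cdk4, which act in G1, were the most abundant genes of the list, but Ccne1, another G1 gene, averaged only 0.703 FPKM. Levels between genes are given as FPKM, counts scaled by gene length and library size. Ccnd3, Ccnd2 and Ccnd1 encode the D-type cyclins, which pair with CDK4 and CDK6. Ccnd2 (gene ID 12444) stood at 34.06, 32.09 and 33.86 FPKM in WT 1 to 3 and at 27.09, 26.6 and 28.86 FPKM in NS-DADm 1 to 3. Every NS-DADm sample lay below every WT sample, and Ccnd2 fell by 0.25 on the log2 scale (SE 0.06, fold 0.838, 95% interval 0.767 to 0.917, adjusted p = 0.045, edgeR). The call lay close to the threshold: adjusted p was 0.0698 to 0.143 when any 1 of the 6 samples was left out, 0.0618 and 0.064 with limma on log2(FPKM + 1) and log2(FPKM + 0.1), 0.0536 with libraries thinned to equal depth, and 0.0598 without the low-count filter. Of 16 alternatives these 10 lost the call and 6 kept it, among them DESeq2's Wald test (adjusted p = 0.0196) and a looser threshold of 0.10.

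The other D-type cyclins did not pass. Ccnd3, the most abundant of them, had 46.76, 38.34 and 40.23 FPKM in WT and 44.19, 39.67 and 37.45 FPKM in NS-DADm, with overlapping groups (fold 0.986, 95% interval 0.858 to 1.13). Ccnd1 had 31.39, 27.5 and 23.23 FPKM in WT and 32.0, 28.64 and 27.79 FPKM in NS-DADm (fold 1.09, 95% interval 0.931 to 1.29). In WT every value of Ccnd2 lay above every value of Ccnd1, while in NS-DADm their values overlapped; this change of order was not tested. Their kinase partner Cdk4 averaged 38.6 ± 3.7 FPKM over the WT and 36.5 ± 3.5 FPKM over the NS-DADm samples (SD, n = 3 each), and Cdk6, at 2.14 ± 0.26 and 2.03 ± 0.084 FPKM, was far lower. Ccne1, the cyclin E gene, was detected by 16, 8 and 14 counts in WT and 16, 20 and 23 in NS-DADm, and its fold of 1.36 had an interval of 0.816 to 2.26. Cdk2, the partner of cyclin E, stood at 5.37 ± 0.54 and 4.99 ± 0.27 FPKM and overlapped between the groups.

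Genes that hold the cycle back did not pass either. Cdkn1b, which encodes the CDK inhibitor p27, had 19.46, 18.18 and 21.1 FPKM in WT and 16.29, 18.81 and 17.59 FPKM in NS-DADm (fold 0.913, 95% interval 0.798 to 1.04). Cdkn1c, the gene of the related inhibitor p57, had 12.43, 12.99 and 12.71 FPKM in WT and 12.83, 16.06 and 13.3 FPKM in NS-DADm (fold 1.13, 95% interval 0.961 to 1.32). The groups overlapped for both inhibitors. Rb1, whose protein restrains E2F, had 8.95, 8.88 and 9.26 FPKM in WT and 8.53, 8.42 and 8.7 FPKM in NS-DADm. The groups did not overlap for Rb1, but the fold was 0.962 (95% interval 0.864 to 1.07, adjusted p = 0.734, edgeR). E2f1, which encodes a factor that RB restrains, was low, at 0.737 ± 0.27 and 0.833 ± 0.11 FPKM.

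Among the 8 genes of DNA replication and nucleotide supply, none was called, against 3.2% of all tested genes, and 6 had a positive fold change. Only 1, Mcm5, had an unadjusted p under 0.05 with edgeR (12.5%, against 18.1% of all tested genes). DESeq2's test and limma also called none. Mcm5, a subunit of the replicative helicase, had 1.18, 0.96 and 1.19 FPKM in WT and 1.49, 1.76 and 1.71 FPKM in NS-DADm. All NS-DADm samples lay above all WT samples, with a fold of 1.51 (95% interval 1.14 to 2.0, unadjusted p = 0.00864, adjusted p = 0.117, edgeR). Among the other helicase subunits of the list, Mcm2 had a fold of 1.17 (95% interval 0.951 to 1.43) and Mcm3 of 1.12 (0.858 to 1.47), with overlapping groups. Mcm6 had 4.6, 4.27 and 3.97 FPKM in WT and 3.79, 3.78 and 4.21 FPKM in NS-DADm (fold 0.923, 95% interval 0.781 to 1.09). The intervals of Mcm2 and Mcm3 overlap that of Mcm5 and the interval of Mcm6 does not, but the difference between subunits was not tested. Outside the 42 genes, the subunit gene Mcm4 had a fold of 1.26 (unadjusted p = 0.0471, adjusted p = 0.271, edgeR) and Mcm7 of 1.09.

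Pcna, the sliding clamp of DNA polymerases, was the most abundant of the replication genes. It had 33.37, 33.56 and 35.54 FPKM in WT and 36.28, 35.9 and 36.31 FPKM in NS-DADm. These groups did not overlap but differed by a fold of only 1.08 (95% interval 0.967 to 1.20, adjusted p = 0.461, edgeR). Rrm2, Tyms and Tk1, which supply deoxynucleotides, had folds of 1.15, 0.946 and 1.40, and the groups overlapped for each. Tk1 rested on 16, 15 and 22 counts in WT and 28, 22 and 35 in NS-DADm, and its interval ran from 0.903 to 2.18.

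The late cell cycle genes, 23 in all, were scarce. Their tested members had a median of 0.725 FPKM beside 7.14 FPKM for all tested genes, and 14 of the 23 averaged under 1 FPKM. Of the 21 tested, 0 were called by edgeR, DESeq2 or limma. With edgeR 3.2% of all tested genes were called, so 0 of 21 lay near the background share. An unadjusted p under 0.05 in edgeR was found for 2, Espl1 and Cenpa (9.52%, against 18.1% of all tested genes). Fold changes were positive in 11 and negative in 10, with a median log2 fold change of 0.03.

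The mitotic cyclins and kinases stood near 1 FPKM or below. Ccna2, the cyclin A gene and the most abundant of them, had 1.29, 1.27 and 1.74 FPKM in WT and 1.28, 1.37 and 1.2 FPKM in NS-DADm, with overlapping groups (fold 0.911, 95% interval 0.662 to 1.25). Cdk1, whose kinase drives entry into mitosis, had 11, 16 and 16 counts in WT and 15, 24 and 14 in NS-DADm (fold 1.07, 95% interval 0.638 to 1.81). Ccnb1, the cyclin B1 gene, had 7, 8 and 3 counts in WT and 11, 4 and 12 in NS-DADm and was too low to test with the filter. Ccnb2 was tested and had a fold of 0.997 with an interval of 0.618 to 1.61. Aurkb, the kinase of the chromosomal passenger complex, had 8, 5 and 16 counts in WT and 18, 11 and 13 in NS-DADm. Its fold of 1.27 had the widest interval on the log2 scale among the tested members of the list, 0.656 to 2.46. Plk1 and Aurka, kinases of spindle assembly, had folds of 0.854 and 1.11 and overlapped between the groups.

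**Figure D2:**
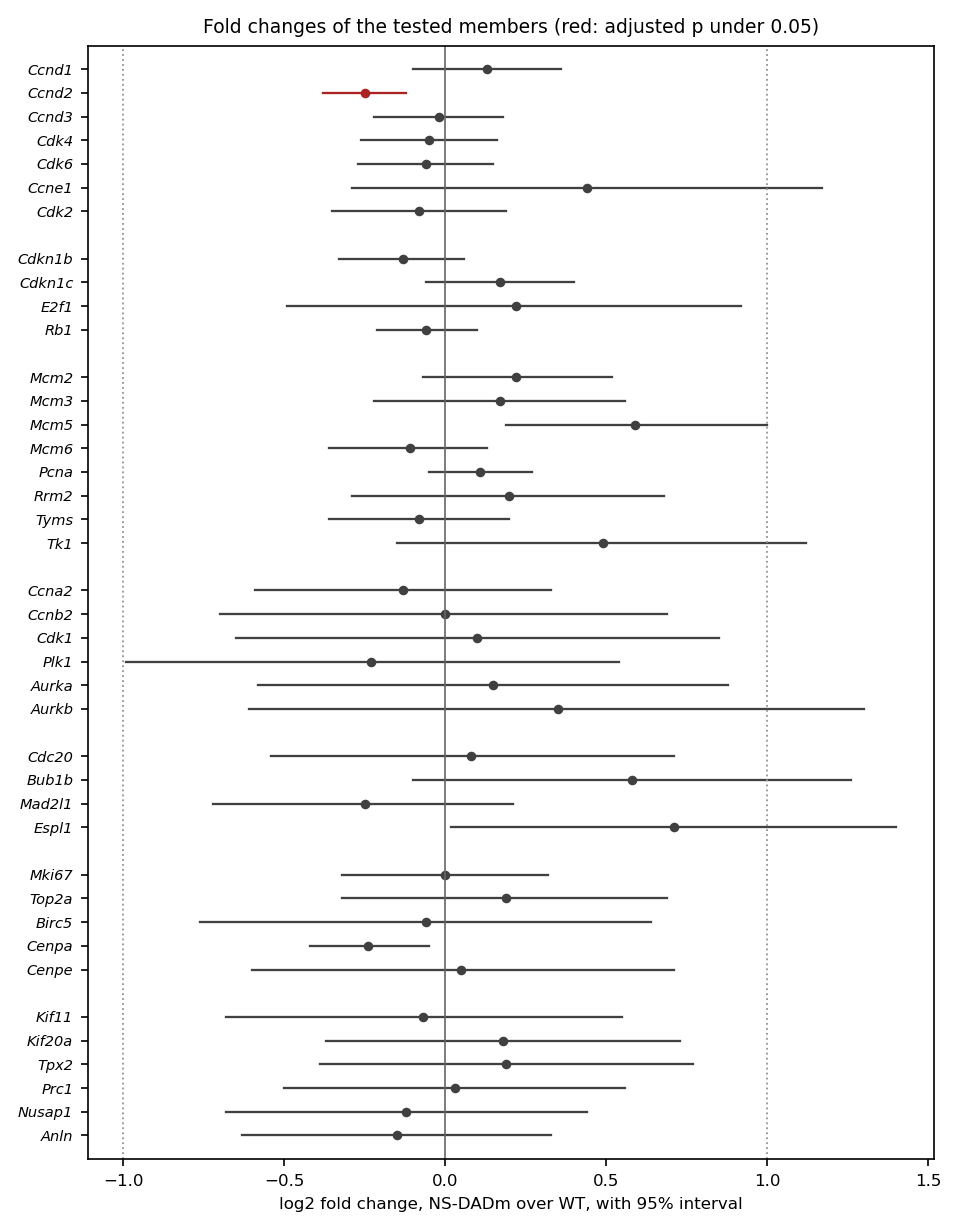
Log2 fold change (NS-DADm over WT) with its 95% interval for the 40 tested genes, with dotted lines at a 2-fold change either way. Only Ccnd2, in red, passed the adjusted threshold, and the interval lies within a 1.5-fold change for 6 of 7 G1 cyclins and kinases and for 3 of 21 late cell cycle genes.

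Genes of the spindle checkpoint and of anaphase onset were likewise low. Espl1 (gene ID 105988) encodes separase, the protease that cuts cohesin. It had 0.14, 0.15 and 0.26 FPKM in WT and 0.28, 0.3 and 0.31 FPKM in NS-DADm, resting on 10, 10 and 19 counts and on 23, 25 and 25. All NS-DADm samples lay above all WT samples, WT 3 being close to them, and the fold was 1.64 (95% interval 1.01 to 2.64, unadjusted p = 0.0451, adjusted p = 0.266, edgeR). Pttg1 (gene ID 30939), not among the 42, encodes securin, the inhibitor that holds separase in check. Pttg1 had 148.05, 141.87 and 131.13 FPKM in WT and 4.41, 3.72 and 5.87 FPKM in NS-DADm. The groups lay far apart, with a fold of 0.0344 (95% interval 0.028 to 0.0424, adjusted p = 3.42e-08, edgeR), and Pttg1 kept its call under all 16 alternatives run. Securin RNA was far more abundant than separase RNA in WT, and the members that act beside it in mitosis did not fall with it at a level the test could call.

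Cdc20, the activator of the anaphase-promoting complex, had 0.97, 1.09 and 1.24 FPKM in WT and 1.22, 1.36 and 0.85 FPKM in NS-DADm (fold 1.06, 95% interval 0.685 to 1.64). Mad2l1, a checkpoint protein gene and the most abundant of this role, had 2.59, 2.5 and 2.09 FPKM in WT and 1.7, 1.94 and 2.26 FPKM in NS-DADm (fold 0.838, 95% interval 0.609 to 1.15). The groups overlapped for both. Bub1b, which encodes another checkpoint protein, had 16, 12 and 14 counts in WT and 18, 31 and 23 in NS-DADm (fold 1.49, 95% interval 0.932 to 2.39). Bub1, a checkpoint kinase gene, had 13, 3 and 15 counts in WT and 9, 8 and 9 in NS-DADm and was too low to test with the filter. Without the filter neither Bub1 nor Ccnb1 was called.

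Mki67, the gene of the proliferation marker Ki-67, did not move detectably. It had 1.16, 1.05 and 1.5 FPKM in WT and 1.16, 1.31 and 1.18 FPKM in NS-DADm. The NS-DADm values lay inside the WT range, and the fold was 1.00 with an interval of 0.8 to 1.25. Top2a, the topoisomerase that untangles chromosomes, had 1.05, 0.63 and 1.18 FPKM in WT and 1.03, 1.16 and 1.01 FPKM in NS-DADm (fold 1.14, 95% interval 0.803 to 1.62). Birc5, which encodes survivin, and Cenpe, a kinetochore motor, had folds of 0.962 and 1.04 with overlapping groups.

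Cenpa stood apart in level. Cenpa encodes the histone H3 variant that marks centromeres. It had 21.36, 19.72 and 18.3 FPKM in WT and 16.87, 16.51 and 16.07 FPKM in NS-DADm. Every NS-DADm sample lay below every WT sample, with a fold of 0.848 (95% interval 0.746 to 0.964, unadjusted p = 0.0167, adjusted p = 0.163, edgeR). No other late cell cycle gene averaged above 3 FPKM.

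The genes of spindle motors and cytokinesis showed no call and no group that stood clear of the other. Prc1, a bundler of midzone microtubules and the most abundant of them, had 1.22, 0.84 and 1.16 FPKM in WT and 0.87, 1.18 and 1.18 FPKM in NS-DADm (fold 1.02, 95% interval 0.706 to 1.48). Tpx2, a spindle assembly factor, had 0.5, 0.46 and 0.7 FPKM in WT and 0.54, 0.59 and 0.72 FPKM in NS-DADm (fold 1.14, 95% interval 0.766 to 1.70). Kif11, the motor that separates spindle poles, had 0.52, 0.37 and 0.69 FPKM in WT and 0.46, 0.46 and 0.58 FPKM in NS-DADm (fold 0.954). Kif20a, a motor of cytokinesis, had a fold of 1.13, Nusap1, which binds spindle microtubules, of 0.919, and Anln, a scaffold of the contractile ring, of 0.899.

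**Figure D3:**
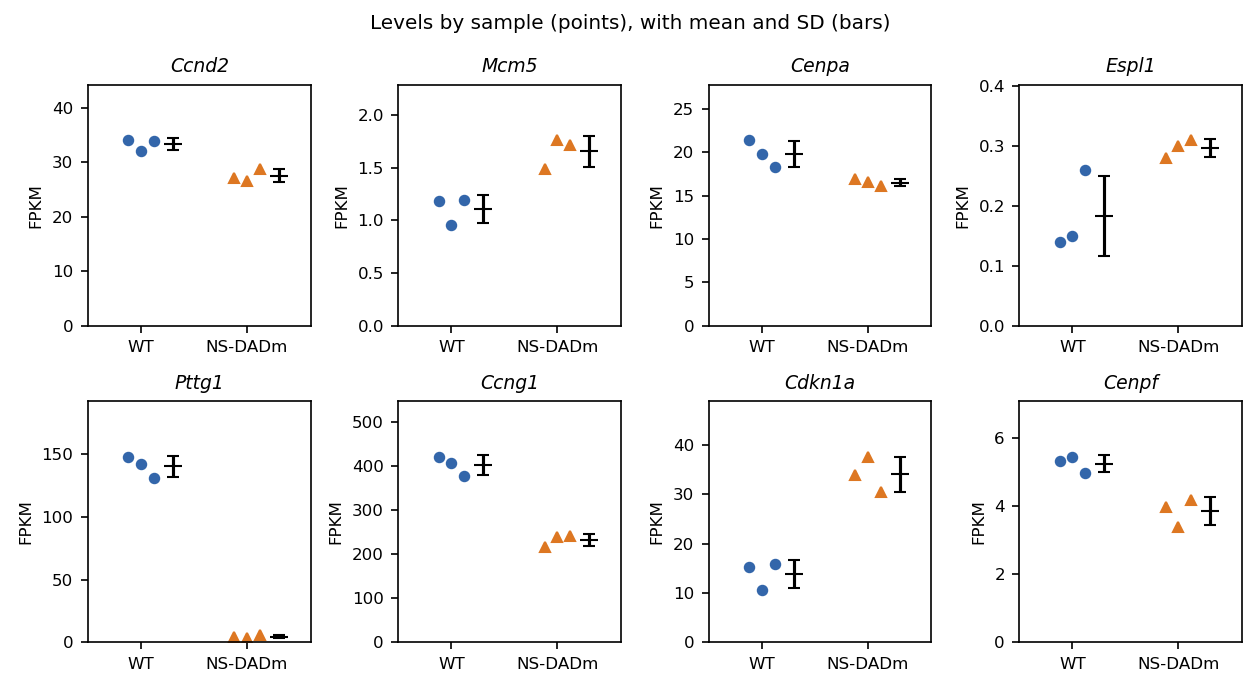
FPKM by sample (WT circles, NS-DADm triangles) with mean and SD (n = 3) for 4 members (top: Ccnd2, Mcm5, Cenpa, Espl1) and 4 other genes of the pathway (bottom: Pttg1, Ccng1, Cdkn1a, Cenpf), all axes from 0. The members shown are those with an unadjusted p under 0.05, and the other genes are among those called (edgeR). That the groups do not overlap in any of the 8 panels reflects this choice. Groups did not overlap in 15% of tested members and 23.4% of all tested genes. Of the members shown only Ccnd2 passed the adjusted threshold.

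Counts summed over the 23 late cell cycle genes showed how much of this rests on single libraries. In CPM, counts scaled to equal effective library size, they came to 84.3, 77.4 and 91.6 in WT 1 to 3 and to 79.4, 85.2 and 80.6 in NS-DADm 1 to 3. The NS-DADm libraries lay inside the WT range, at 81.7 ± 3.0 against 84.4 ± 7.1 CPM (SD, n = 3 each). Cenpa and Mki67 weigh most in this sum, which was 784 to 1043 counts in WT and 978 to 1060 in NS-DADm. Cenpa gave 277 to 322 counts in WT and 276 to 295 in NS-DADm, and Mki67 107 to 169 and 144 to 168. The exact 95% Poisson intervals, which cover counting error only, ran from 72.1 to 83.0 in WT 2 and from 86.1 to 97.4 in WT 3, so these WT libraries differed by more than counting error. WT 3 had the highest WT value in 15 of the 23 genes and WT 2 the lowest in 13. The sums for replication genes were 94.7, 98.4 and 103 CPM in WT and 109, 101 and 105 in NS-DADm, and overlapped.

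**Figure D4:**
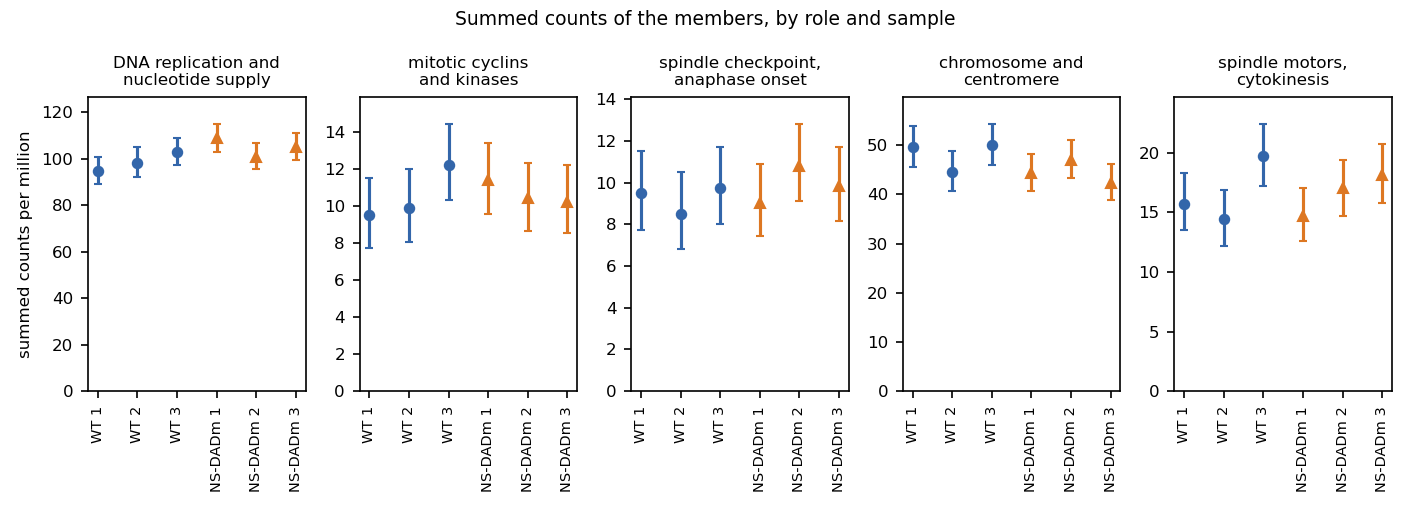
Counts summed over the genes of 5 roles, as CPM, in each of the 6 samples, with exact 95% Poisson intervals for counting error only. The NS-DADm samples (triangles) overlap the WT samples (circles) in all 5 panels, and WT 3 is the highest WT sample in each.

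Precision differed sharply between the roles. For 34 of the 40 tested genes the 95% interval of the fold change lay within a 2-fold change either way, and for 17 it lay within 1.5-fold. Among G1 cyclins and kinases 6 of 7 lay within 1.5-fold, but among the late cell cycle genes only 3 of 21, Mki67, Cenpa and Prc1, while 18 of 21 lay within 2-fold. The genes whose interval reached a 2-fold rise were Ccne1, Mcm5, Tk1, Aurkb, Bub1b and Espl1.

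Of 208 other genes of the pathway, 204 were listed and 170 tested, of which 2 rose, 3 fell and 165 did not pass. The 5 calls were 2.94% of those tested, against 3.2% of all tested genes. Among 18 further tested regulators from G1 to mitosis, Cdkn1a rose and Ccng1 fell (11.1% called, against 3.2% of all tested genes). An unadjusted p under 0.05 with edgeR was found for 5 of the 18 (27.8%, against 18.1% of all tested genes). The groups did not overlap in 38.9% of this list, against 23.4%. Cdkn1a, which encodes the CDK inhibitor p21, had 15.19, 10.68 and 15.82 FPKM in WT and 33.93, 37.55 and 30.42 FPKM in NS-DADm, with every NS-DADm sample higher (fold 2.48, 95% interval 2.01 to 3.07, adjusted p = 0.00112, edgeR). Ccng1, which encodes cyclin G1, had 421.59, 407.1 and 377.22 FPKM in WT and 216.14, 238.19 and 241.84 FPKM in NS-DADm. Every NS-DADm sample was lower (fold 0.587, 95% interval 0.525 to 0.656, adjusted p = 0.000558, edgeR). Both kept their calls under all 16 alternatives run.

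A list of E2F family, pocket protein and DREAM complex genes also held Myc, Mycn and Foxm1. The DREAM complex represses late cell cycle genes in resting cells. Of the 19 tested genes of this list Myc alone passed (5.26%, against 3.2% of all tested genes). No E2F, pocket protein or DREAM gene in it was called. Myc, a transcription factor that promotes growth, had 1.6, 1.44 and 1.53 FPKM in WT and 2.42, 3.26 and 3.11 FPKM in NS-DADm (fold 1.96, adjusted p = 0.0235, edgeR). Its groups did not overlap, but adjusted p was 0.0513 to 0.105 when WT 1, WT 2, WT 3, NS-DADm 2 or NS-DADm 3 was left out. Of 23 tested kinetochore and centromere genes, Cenpf fell (4.35% called, against 3.2% of all tested genes). In this list 5 genes had an unadjusted p under 0.05 with edgeR (21.7%, against 18.1%). Groups did not overlap in 30.4% of it, against 23.4% of all tested genes. Cenpf, a kinetochore protein gene, had 5.32, 5.46 and 4.98 FPKM in WT and 3.98, 3.39 and 4.2 FPKM in NS-DADm (fold 0.746, adjusted p = 0.0315, edgeR). Cenpf lost its call under 7 of the 16 alternatives, with an adjusted p of up to 0.136. Leaving out WT 1 gave 0.104, WT 2 gave 0.136, NS-DADm 1 gave 0.0875 and NS-DADm 2 gave 0.0793 as the adjusted p of edgeR, libraries thinned to equal depth gave 0.0519, and the pair of limma fits gave 0.0928 and 0.095.

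The remaining lists had no call beside Pttg1. Pttg1 was the only one of 21 tested genes of the spindle checkpoint and the anaphase-promoting complex to be called (4.76%, against 3.2% of all tested genes). In that list 3 genes had an unadjusted p under 0.05 (14.3%, against 18.1% of all tested genes). Beside Pttg1 they were Cdc23 (fold 0.849, adjusted p = 0.111, edgeR) and Cdc26 (fold 1.18, adjusted p = 0.151, edgeR). Origin licensing and replication fork genes had 0 of 46 called by edgeR, DESeq2 or limma (7 with an unadjusted p under 0.05), cohesin and condensin genes 0 of 18 (2), and further spindle and cytokinesis genes 0 of 25 (4). The shares with an unadjusted p under 0.05 were 15.2%, 11.1% and 16%. Of all tested genes, 18.1% had such a p and 3.2% were called by edgeR. Median log2 fold changes of these 3 lists were 0.04, -0.02 and -0.05.

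Markers of cell types were read beside these results. Heart muscle markers summed to 64100 to 73000 FPKM over 8 genes in the 6 samples, so the labelled tissue was present. Of 9 tested macrophage markers, 4 rose by edgeR, while 3.2% of all tested genes were called. These were C1qa, C1qb, C1qc and Csf1r, with folds of 1.41, 1.45, 1.52 and 1.36. The others were not called, with folds from 1.15 (Mrc1) to 1.32 (Adgre1). The sum of all 9 was 284 to 318 FPKM in WT and 366 to 425 FPKM in NS-DADm, with none of them at 0. Sums for 8 smooth muscle and pericyte markers were 312 to 332 FPKM in WT and 253 to 293 in NS-DADm with none called. That list did not move as one. Rgs5, a pericyte gene that made up most of the sum, went from 214 to 167 FPKM on average (fold 0.794). Pdgfrb, Kcnj8 and Cspg4 had folds of 0.881, 0.82 and 0.973. The smooth muscle gene Acta2, next to Rgs5 in level, had a fold of 0.983. Myh11, Tagln and Cnn1, also smooth muscle genes, had folds of 1.40, 1.41 and 2.51. Their groups overlapped, and each was highest in NS-DADm 1 (8.79, 28.7 and 3.7 FPKM). Sums for 6 erythroid markers did not overlap, at 6710 to 7970 FPKM in WT and 3390 to 6680 FPKM in NS-DADm. The 5 of them that were tested had folds of 0.695 to 0.732, each with an unadjusted p under 0.05 and none called by edgeR, and the globin genes among them have near-identical copies that can share reads. Sums for 7 endothelial markers were 1440 to 1490 FPKM in WT and 1410 to 1660 in NS-DADm, and those for 7 fibroblast markers 523 to 607 and 511 to 619. Fabp4 made up most of the endothelial sum (1230 and 1270 FPKM on average), and Dcn most of the fibroblast sum (394 and 403). Folds of the 7 endothelial genes ran from 0.905 (Cdh5, unadjusted p = 0.0404, edgeR, groups not overlapping) to 1.14 (Pecam1), with none called. The 7 fibroblast genes went both ways, with none called. Lum had the lowest fold, 0.844 (unadjusted p = 0.0111, edgeR, groups not overlapping). Col1a1 had the highest, 1.24 (unadjusted p = 0.0101, edgeR), and Col1a2 had 1.13 (unadjusted p = 0.0369, edgeR), with overlapping groups for both. The part of these cell types in the fall of Ccnd2 was not tested, and in bulk samples fewer cells of a type and less RNA per cell cannot be told apart. Atrial markers were high in WT 3, NS-DADm 1 and NS-DADm 3 (4690, 3770 and 6590 FPKM over 6 genes) and lower in WT 1, WT 2 and NS-DADm 2 (535, 271 and 574). With the atrial score as a covariate, an alternative chosen after the data were seen, the members still had 1 fall and 0 rises. Of 48 tested transcript models of the members, 0 were called by edgeR, against 0.0972% of all 17497 tested transcripts, and 1, the single model of Ccnd2, had an unadjusted p under 0.05 (adjusted p = 0.148). DESeq2 and limma were not run on transcripts.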

How the data were processed

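RNA was measured by sequencing in 3 WT and 3 NS-DADm myocardium samples. Per the file headers, the authors deposited an expected count (an estimated count of reads assigned to the feature) and an FPKM value for every gene and transcript. HISAT is the aligner named by the submitters' processing notes; version, estimator, build and annotation were not given in the sources used here. Tables list only features with an FPKM of at least 0.01, so an unlisted gene counted as 0; the 1 row without a symbol held at most 0.00032% of counts and was left out.

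Expected counts were rounded, filtered by filterByExpr, scaled by TMM and tested by the quasi-likelihood method of edgeR (version 4.0.16, R 4.3.3, all 6 samples, no replicate block), with Benjamini-Hochberg adjustment over all 13130 tested genes and 0.05 as the threshold. SEs and 95% intervals were derived from the fold change, the test statistic and its degrees of freedom. Alternatives used DESeq2 1.42.0 and limma 3.58.1. Members passing the threshold, and the most abundant member and the one with the smallest p of each role, are given by sample; other genes of the pathway are named when called (up to 3 a list). Members and lists were chosen with earlier results of these data known. Promoter windows are from RefSeq.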

Additional observations from a re-analysis of the deposited data

How the results depend on the processing

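The count of members called higher was 0 under all 16 alternatives. The count called lower went from 1 to 0 without the low-count filter, with limma on either log scale, with thinned libraries, and when any 1 sample was left out (range 0 to 0); Ccnd2 kept its sign in each of these, with log2 fold changes of -0.28 to -0.24. Of 626 values of single members under an alternative, 616 kept their side of the threshold, and the other 10 were Ccnd2 losing its call. The median of the members stayed between -0.04 and 0.08. Over all tested genes, 420 were called, 820 at an adjusted p of 0.10, 272 and 267 with limma on log2(FPKM + 1) and log2(FPKM + 0.1), and 117 to 382 when 1 sample was left out; the cause was not tested. With the replicate block 895 genes were called and Ccnd2 was among them (adjusted p = 0.0243). The labels state no pairing, and the main fit used no replicate block for that reason. Deviations of same-numbered samples correlated at -0.05, 0.33 and 0.40, and those of differently numbered samples at -0.44 to 0.19. These values do not settle whether the numbers pair the samples. Low counts limit the late cell cycle genes most.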

Other observations

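Transcript models of several members held all of a gene's counts in some libraries and none in others. E2f1 had 25, 24 and 0 counts in WT 1 to 3 and 0, 0 and 23 in NS-DADm 1 to 3 on 1 RefSeq model, and 0, 0 and 13 with 29, 31 and 0 on the other. Tk1 had 16, 0 and 22 counts in WT and 28, 0 and 35 in NS-DADm on 1 model, and 0, 15 and 0 with 0, 22 and 0 on the other. In each of these libraries 1 model was at 0 while the gene's total was not. Tpx2 counts lay on a single model in all WT libraries (22, 19 and 32), and that model had 0, 23.22 and 0 in NS-DADm, where the other 2 models took the rest.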
